A study of Mus musculus with 16 samples.

Results

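The nuclear genes that encode the protein import and folding machinery of mitochondria were examined in cultured mouse neural stem cells that were wild-type or mutant for Tsc2. The set was defined by gene symbol and held every gene named Timm or Tomm followed by a digit, plus 12 named partners (Dnajc19, Pam16, Grpel1, Hspa9, Hspd1, Hspe1, Pmpca, Pmpcb, Chchd4, Samm50, Mtx1 and Mtx2), with a mean of at least 10 normalized reads in both deposited tables. Of the 24946 genes in the tables, 38 matched by name and 36 passed. Timm8a2 and Tomm20l did not, at means of 1.34 and 0.720 normalized reads in total RNA and 0.591 and 0.359 in polyribosomal RNA. The member with the lowest mean was Tomm6os, an RNA of the strand opposite Tomm6 that the name pattern caught and that encodes no import protein (152 in total and 126 in polyribosomal RNA), and the next was Timm21 (1155 and 468). The other 35 are protein-coding and were sorted by role into 9 genes of the TOM complex and the outer membrane receptors, 3 of the SAM complex and metaxins, 6 of the intermembrane space, 3 of the TIM22 translocase, 10 of the TIM23 translocase and its motor, and 4 of the matrix.

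Neural stem cells (NSCs) were grown from the V-SVZ (ventricular-subventricular zone), a germinal layer lining the lateral ventricle, of neonatal pups a week after tamoxifen. Wild-type cultures (Tsc2 wild type/wild type, titled control) and mutant cultures (Tsc2 mutant/mutant, titled TSC) came from a line with a floxed Tsc2 allele, a Nestin-CRE-ERT2 transgene, which is active in Nestin-expressing progenitors and their descendants, and a tdTomato reporter; the sources do not settle if wild-type pups also had the CRE transgene. Each of 4 cultures per genotype was passaged once, treated with cycloheximide for 15 minutes to hold ribosomes on mRNA, and yielded 1 library of total RNA and 1 of polyribosomal RNA from the heaviest 3 mL of a 17.5 to 50% sucrose gradient, which makes 16 libraries in 4 groups. The sex, litter and exact age of each culture are not given in the labels, so the tests below measure the spread between cultures.

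As background, almost all mitochondrial proteins are made on cytosolic ribosomes and cross the outer membrane through the TOM pore. From there, carriers of the inner membrane are escorted by small TIM chaperones to TIM22, barrel proteins go to SAM, and precursors with a cleavable presequence pass TIM23, are pulled in by an Hsp70 motor, are clipped by the processing peptidase and are folded by the chaperonin of Hspd1 and Hspe1. Tsc2 restrains mTORC1, a kinase complex known to raise the translation of many mRNAs for mitochondrial and ribosomal proteins.

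Column totals of normalized reads were between 65.6 and 73.7 M in total RNA and between 87.4 and 100.5 M in polyribosomal RNA, and depth, estimated from the value of a single read, was about 24.8 to 140 M and 50.5 to 268 M reads. All 12 NSC markers listed were present in every library, with summed levels of 748624 to 888194 in wild-type and 772031 to 857479 in mutant total RNA, led by Vim. Of these 12 markers, 1 was called lower and 2 higher in total RNA, and 2 lower and 0 higher in polyribosomal RNA. Of all tested genes, 20.7% were called lower and 19.7% higher in total RNA, and 11.9% and 11.7% in polyribosomal RNA. The counts of the marker lists stand beside these shares. Other marker lists differed between the genotypes in their sums. The 20 S phase genes summed to 262972 to 320028 normalized reads in wild-type and 121611 to 247438 in mutant total RNA (20 of 20 called lower), and mutant cultures 1 and 3 were lowest. The 10 myelin genes summed to 15833 to 17172 and 26141 to 34979 (10 of 10 called higher), the 10 choroid plexus genes to 199366 to 259606 and 295719 to 427418 (5 of 8 tested called higher, with Kl and Kcne2 at 0 in some libraries), and the 15 microglial genes to 4885 to 7432 and 7007 to 32295 (5 of 15 called higher, highest in mutant cultures 2 and 4). Of 14 microglial genes tested in polyribosomal RNA, 1 was called higher. Most of the choroid plexus sum was Igfbp2, with means of 238449 in wild-type and 363031 in mutant total RNA. Ttr, Folr1, Clic6 and Calml4 had wild-type means below 10 (4.51, 5.19, 5.53 and 6.66). Their mutant means were 675, 15.6, 32.2 and 22.8. The 4 Y-linked genes summed to 4203 to 5802 in wild-type cultures 1, 2 and 3 and mutant culture 1 and to 6.57 to 258 in the others, so sex was not balanced between the genotypes. Among the import and folding genes, mutant culture 3 was the lowest of 8 total RNA libraries for 31 of 36 members, and in polyribosomal RNA mutant culture 3 was lowest for 17 and wild-type culture 1 for 12.

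Promoter sequence was read for all members, most of which were lower in total RNA, from RefSeq windows on GRCm38.p6 (the mm10 build the reads were aligned to) that run from 250 bases before to 50 bases after the annotated start. A window was found for 32 of 36 members. Shown here are the bases before the start of 7 members: the shared promoter of Hspe1 and Hspd1, which face away from each other, the 3 intermembrane space genes with the largest falls (Timm8a1, Chchd4, Timm9), Timm23, Tomm22, and Timm29, a protein-coding member that did not fall. For Hspe1 the stretch is the 215 bases between its start and one RefSeq start of Hspd1 on the other strand. Capitals mark CCGGAA (the core bound by ETS factors such as GABP), CACGTG (the E-box bound by MYC and related factors) and the heat shock half-site pairs GAANNTTC and TTCNNGAA, each searched on both strands; the motifs may overlap.
Hspe1, chr1:55087933-55088147, plus strand: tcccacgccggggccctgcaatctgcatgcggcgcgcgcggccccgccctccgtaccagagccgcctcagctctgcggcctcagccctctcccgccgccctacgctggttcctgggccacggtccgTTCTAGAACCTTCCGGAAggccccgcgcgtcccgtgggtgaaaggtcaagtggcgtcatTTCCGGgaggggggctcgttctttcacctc
Timm8a1, chrX:134541671-134541920, minus strand: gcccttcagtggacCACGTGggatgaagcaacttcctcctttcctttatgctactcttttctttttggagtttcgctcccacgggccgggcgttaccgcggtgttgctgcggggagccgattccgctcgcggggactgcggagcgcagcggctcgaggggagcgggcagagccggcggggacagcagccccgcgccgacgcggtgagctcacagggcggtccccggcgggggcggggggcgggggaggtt
Timm9, chr12:71136676-71136925, minus strand: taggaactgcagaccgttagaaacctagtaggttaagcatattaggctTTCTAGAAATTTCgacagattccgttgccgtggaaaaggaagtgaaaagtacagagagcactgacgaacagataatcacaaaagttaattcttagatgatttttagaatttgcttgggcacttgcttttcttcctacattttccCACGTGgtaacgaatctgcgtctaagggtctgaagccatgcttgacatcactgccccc
Chchd4, chr6:91473424-91473673, minus strand: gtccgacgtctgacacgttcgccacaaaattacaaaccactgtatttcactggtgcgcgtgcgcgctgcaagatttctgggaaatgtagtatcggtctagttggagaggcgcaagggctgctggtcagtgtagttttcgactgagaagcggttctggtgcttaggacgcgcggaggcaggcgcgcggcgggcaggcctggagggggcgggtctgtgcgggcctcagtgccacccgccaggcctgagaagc
Timm23, chr14:32201892-32202141, minus strand: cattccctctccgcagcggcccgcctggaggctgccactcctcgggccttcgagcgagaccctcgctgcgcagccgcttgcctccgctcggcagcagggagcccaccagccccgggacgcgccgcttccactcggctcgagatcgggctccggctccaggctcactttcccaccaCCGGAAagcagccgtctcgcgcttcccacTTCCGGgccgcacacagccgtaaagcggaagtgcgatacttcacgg
Tomm22, chr15:79670618-79670867, plus strand: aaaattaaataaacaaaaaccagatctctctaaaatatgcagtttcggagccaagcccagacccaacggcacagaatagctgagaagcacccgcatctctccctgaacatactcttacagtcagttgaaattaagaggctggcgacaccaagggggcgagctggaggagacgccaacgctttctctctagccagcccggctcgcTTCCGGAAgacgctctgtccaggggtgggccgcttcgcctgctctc
Timm29, chr9:21592472-21592721, plus strand: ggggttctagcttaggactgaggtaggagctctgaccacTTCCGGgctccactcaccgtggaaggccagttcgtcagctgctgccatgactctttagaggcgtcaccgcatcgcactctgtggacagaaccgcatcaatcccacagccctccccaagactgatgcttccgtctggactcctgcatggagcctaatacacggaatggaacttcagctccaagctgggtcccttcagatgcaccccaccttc

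The stretch between Hspe1 and Hspd1 held ETS cores 79, 77 and 30 bases and overlapping heat shock pairs 89, 84 and 79 bases before the Hspe1 start. Timm9 had a pair of overlapping heat shock motifs 202 and 197 bases before its start and an E-box at 58 bases, Timm8a1 an E-box at 236 bases, Timm23 ETS cores at 75 and 46 bases, and Tomm22 ETS cores at 46 and 44 bases that overlap a heat shock pair at 46. Chchd4 had none of these motifs in the stretch, and Timm29, which did not fall, had an ETS core 211 bases before its start. Over the full windows, 17 of 32 members (53.1%) held an ETS core against 29.0% of 11654 tested genes with a window, 6 of 32 (18.8%) an E-box against 11.4%, 10 of 32 (31.2%) the CCAAT box against 42.7%, 3 of 32 (9.38%) the head-to-head heat shock pair GAANNTTC against 6.88%, and 7 of 32 (21.9%) the tail-to-tail pair TTCNNGAA against 7.98%. The NRF1 core GCGCATGC was in 2 of 32 (6.25%, Grpel1 and Timm13) against 5.55%. The letters TGATGCAA, a core of sites for ATF4 dimers, were in 0 of 32 windows against 0.712%. None of the 32 had a start of C followed by 4 pyrimidines, the form that marks 5' TOP mRNAs, at the annotated position, against 3.09% of tested genes. The windows of Hspe1 and Hspd1 overlap by 285 bases and hold the same sites. With these counted as 1 promoter, the shares were 16 of 31 (51.6%) for the ETS core, 2 of 31 (6.45%) for GAANNTTC, now below the share of tested genes, and 6 of 31 (19.4%) for TTCNNGAA. The counts include Timm29 (ETS core) and Tomm6os (E-box), which had no call in total RNA. They describe letters in the windows and were not tested.

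The first question was whether the mRNAs of this machinery differ in abundance between Tsc2 genotypes. In total RNA, 34 of 36 members were lower in mutant cultures and 0 were higher (limma, adjusted p under 0.05 over 14967 genes; 0 were higher at an unadjusted p under 0.05), where 20.7% of all tested genes were called lower and 19.7% higher. The members without a call were Timm29 and Tomm6os. For 32 members all 4 mutant libraries lay below all 4 wild-type libraries, against 20.3% of tested genes. The median log2 change, mutant against wild-type on the log2(value + 1) scale, was -0.52 (quartiles -0.67 and -0.33) beside 0.01 over all tested genes (quartiles -0.28 and 0.37). The largest fall was that of Timm8a1, whose mutant mean was 0.506 of the wild-type mean, and the smallest called fall that of Timm17b, at 0.840. With 1 culture left out at a time, Timm17b lost its call in 7 of 8 fits, and Pmpcb, Timm10b, Timm22 and Tomm6 in 5. Mtx1 and Pmpca lost theirs in 3, Samm50 in 2, and Timm21 and Tomm7 in 1. In bulk RNA, fewer cells of a type and less RNA per cell cannot be told apart.

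The S phase genes moved with this result: their mean log2 level did not overlap between the genotypes, at 13.28 to 13.56 in wild-type and 12.11 to 13.15 in mutant total RNA, and mutant cultures 3 and 1 were lowest both for them and for the mean of the members (12.08 and 12.27, against 12.42 and 12.45 in mutant cultures 2 and 4 and 12.74 to 12.86 in wild-type). With the S phase level as a covariate no member was called lower (13 at an unadjusted p under 0.05) and the median change was -0.23, while over all genes 2 were then called lower and 4 higher. When the mean Y-linked level entered the fit 11 members were called lower, beside 535 of all 14967 genes. At an unadjusted limma p under 0.05, 33 were lower, and the median change was -0.51, against -0.52 in the main fit. Without mutant cultures 1 and 3, the lowest, 18 members were called lower, beside 1151 of all genes, against 3091 in the main fit. In that fit 31 were lower at an unadjusted limma p under 0.05, and the median change was -0.39. Cycling state and genotype cannot be told apart here, and the part of the myelin, choroid plexus and microglial signals in the result was not tested.

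**Figure D1:**
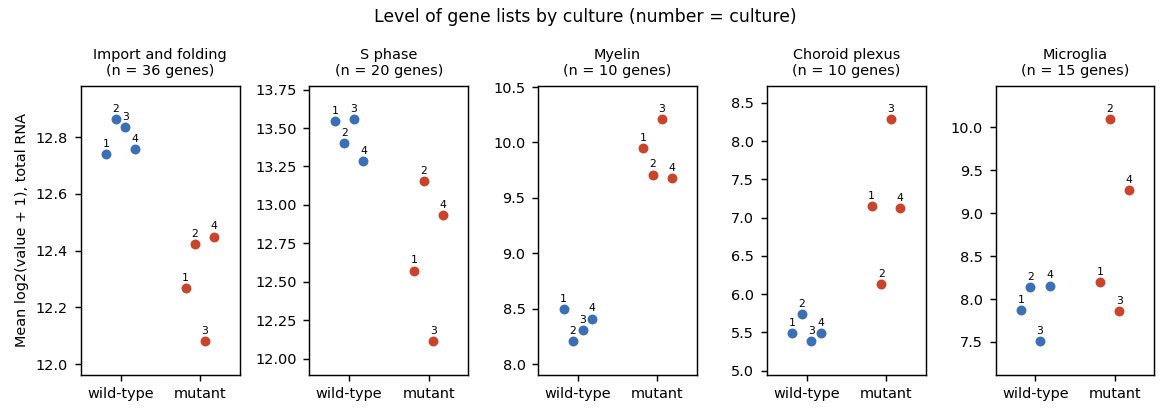
Mean log2(value + 1) in total RNA (vertical axes, each with its own range) of the import and folding genes and of marker lists, 1 point per culture, numbered, for wild-type and mutant cultures. Import and folding genes and S phase genes lie lower in all 4 mutant cultures, with culture 3 lowest in both; myelin and choroid plexus genes lie higher.

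**Figure D2:**
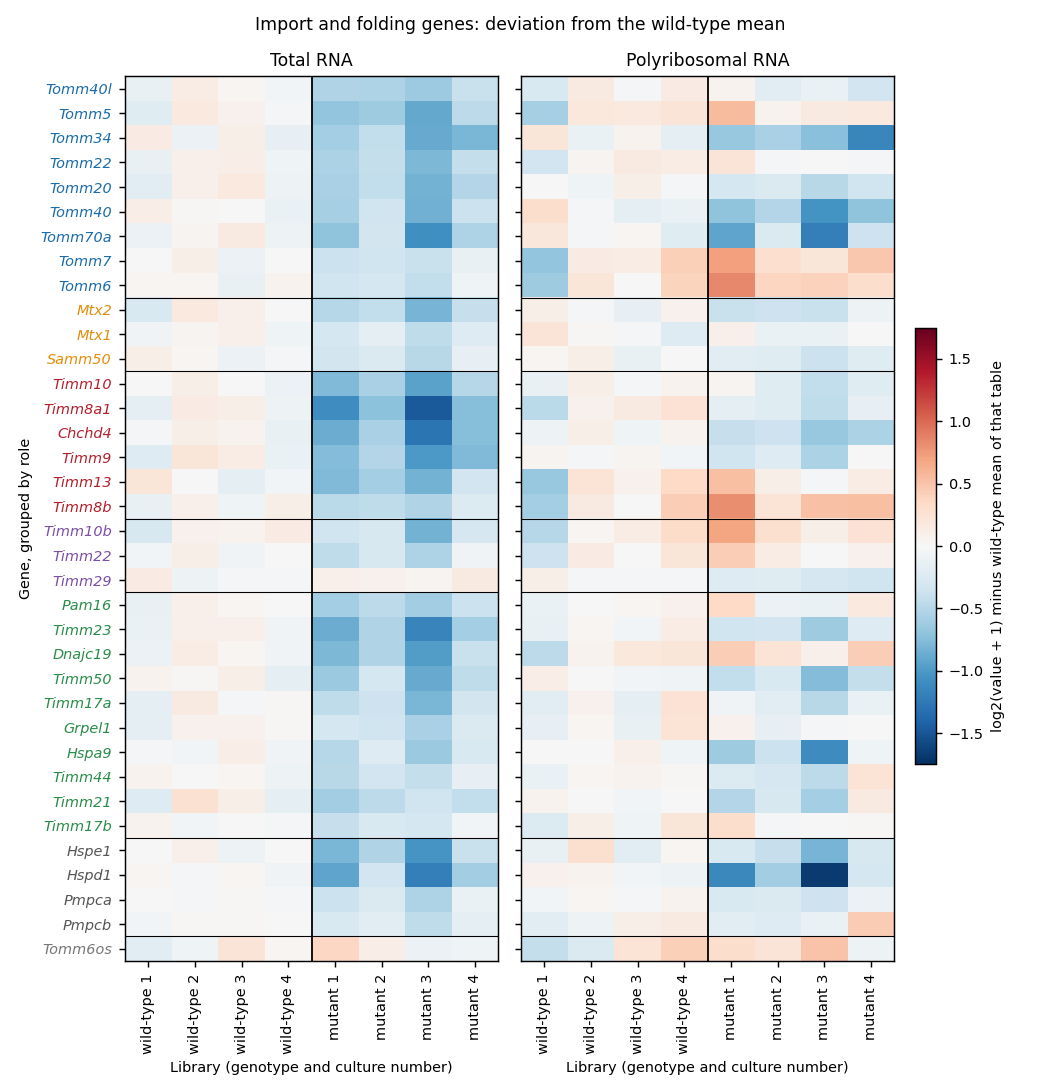
Deviation of each library from the wild-type mean of its table, in log2(value + 1), for the 36 members (rows, grouped by role; label colour gives the role) in 8 total RNA and 8 polyribosomal libraries (columns). Mutant total RNA is below the wild-type mean for nearly all genes and lowest in culture 3, whereas in polyribosomal RNA several genes, such as Timm8b, Tomm6 and Tomm7, lie above it and wild-type culture 1 is low for these.

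In the outer membrane, 9 of 9 members of the TOM group, the entry gate for precursors, were lower in total RNA, with log2 changes from -0.68 to -0.29. Levels are given per library in normalized reads, for cultures 1 to 4 of each genotype in order. Tomm40l, a paralog of the pore protein, had 5442, 6555, 6138 and 5793 in wild-type and 4132, 4098, 3844 and 4561 in mutant cultures, with no overlap. It fell by 0.52 ± 0.09 (SE) on the log2 scale (limma adjusted p = 0.00322), though 64.3% of its exonic bases overlap Nr1i3 on the other strand and the kit did not mark strand. Tomm5, a small subunit that sits beside the pore, had 8284, 10852, 10104 and 9413 in wild-type and 5984, 6239.9, 5153 and 7013 in mutant cultures, all mutant values below all wild-type ones, and fell by 0.67 ± 0.11 (limma adjusted p = 0.0035). Tomm34, a cytosolic co-chaperone that binds Hsp70 and Hsp90, stood at 4138, 3498, 4034 and 3382 in wild-type and 2479, 2785, 2033 and 2143 in mutant cultures. Its level fell by 0.68 ± 0.12 (limma adjusted p = 0.00356), with mutant cultures 3 and 4 lowest. The receptors moved likewise. Tomm22, the central receptor and organizer, had 9626, 11150.0, 11323 and 9987 in wild-type and 7117, 7865, 6093 and 7874 in mutant cultures. In the test it fell by 0.54 ± 0.10 (limma adjusted p = 0.00442). Tomm20, which recognizes presequences, had 25850.1, 31298, 33065 and 27669.9 in wild-type and 19881, 21759, 16581 and 20621 in mutant cultures. Mutant levels fell by 0.58 ± 0.11 (limma adjusted p = 0.00461); mutant culture 3 was lowest and the groups did not overlap. The pore gene Tomm40 (log2 change -0.54) and Tomm70a, the receptor for carrier precursors (-0.66), were also lower, and the small subunits Tomm7 and Tomm6 fell least (-0.31 and -0.29). Of the exonic bases of Tomm6, 84.2% overlap other genes, among them Tomm6os, and wild-type and mutant values of Tomm6 overlapped.

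In polyribosomal RNA 4 of these 9 members were called lower, against 11.9% of all tested genes: Tomm40, Tomm34, Tomm20 and Tomm70a. The receptor Tomm22, Tomm40l and the small subunits Tomm5, Tomm6 and Tomm7 were not called, and whether these differ from the called members was not tested. Tomm40 had 41713, 33058, 30182 and 31269 in wild-type and 20677, 23655, 16376 and 20829 in mutant cultures. Its mRNA fell by 0.74 ± 0.14 (limma adjusted p = 0.00566), with no overlap although wild-type culture 1 stood above the others. Tomm34 had 12429, 9918, 11275 and 9681 in wild-type and 6803, 7238, 6487 and 4880.0 in mutant cultures. The gene fell by 0.78 ± 0.15 (limma adjusted p = 0.00526), lowest in mutant culture 4. Tomm70a (-0.68, limma adjusted p = 0.0268) and Tomm20 (-0.35, limma adjusted p = 0.0376) were the other called falls; with 1 culture left out at a time, the call of Tomm20 was lost in 6 of 8 fits and that of Tomm70a in 5, and with the S phase level in the fit Tomm70a was at 0.24 without a call. Tomm5 had 3049.9, 5199, 5131 and 5309 in wild-type and 6694, 4779, 5107 and 5127 in mutant cultures, where wild-type culture 1 was far below the other wild-type cultures and the genotypes overlapped (log2 change 0.24 ± 0.19, limma adjusted p = 0.365). Tomm22 was at 4830.4, 6266, 6787 and 6669 in wild-type and 7146, 5945, 6089 and 5963 in mutant cultures (log2 change 0.04 ± 0.14, limma adjusted p = 0.843), again with overlap and with wild-type culture 1 lowest. Tomm40l had a log2 change of -0.15, Tomm7 of 0.43 and Tomm6 of 0.48, none past the threshold. Without wild-type culture 1 the changes were 0.05 for Tomm5, 0.20 for Tomm7 and 0.28 for Tomm6.

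The SAM group folds barrel proteins into the outer membrane: Samm50 is the insertase, and the metaxins Mtx1 and Mtx2 are its partners on the cytosolic side. All 3 were lower in total RNA, with a median log2 change of -0.30. Mtx2 had 2964, 4019, 3764 and 3556 in wild-type and 2522, 2625, 2019.8 and 2684 in mutant cultures, with mutant culture 3 lowest and no overlap, and fell by 0.54 ± 0.12 (limma adjusted p = 0.00816). Mtx1 had 4723, 5117, 5269.9 and 4717 in wild-type and 3989, 4381, 3654 and 4223 in mutant cultures. Its level fell by 0.29 ± 0.08 (limma adjusted p = 0.0206); 30.1% of its exonic bases overlap other genes, among them Thbs3. Samm50 had 14694, 14047, 12769 and 13461 in wild-type and 10936, 11502, 9848 and 12371 in mutant cultures. In the test it fell by 0.30 ± 0.09 (limma adjusted p = 0.0227), and for both the genotypes did not overlap. In polyribosomal RNA none of the 3 was called, with log2 changes of -0.31 for Mtx2, -0.03 for Mtx1 and -0.25 for Samm50, although the mutant values of Samm50 (27490.4, 27062, 24128 and 27176) lay below the wild-type values (32130.2, 33819, 28570.4 and 31353).

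The intermembrane space group had the lowest median change of all roles. Its small TIM proteins form chaperone rings (Timm9 with Timm10, Timm8a1 or Timm8b with Timm13) that keep hydrophobic precursors soluble, and Chchd4 is the oxidoreductase that traps such small proteins by forming their disulfide bonds. In total RNA 6 of 6 were lower, with a median log2 change of -0.73, and in none did the genotypes overlap. Timm8a1 had 5613, 6989, 6792 and 5914 in wild-type and 2969, 3815, 2280.3 and 3748 in mutant cultures. Mutant levels fell by 1.01 ± 0.16 (limma adjusted p = 0.00297). Chchd4 had 3754, 4096, 3976 and 3486 in wild-type and 2093, 2575, 1575 and 2283 in mutant cultures. Its mRNA fell by 0.86 ± 0.14 (limma adjusted p = 0.00303). For both, mutant culture 3 was lowest and culture 2 highest among mutants. The partners Timm10 and Timm9 were both lower. Timm10 had 3439.8, 3724, 3468 and 3231 in wild-type and 2017, 2341, 1803 and 2457 in mutant cultures, a fall of 0.69 ± 0.11 (limma adjusted p = 0.00283), and Timm9 had 1703, 2291, 2183 and 1831 in wild-type and 1169, 1398, 991 and 1165 in mutant cultures, a fall of 0.76 ± 0.13 (limma adjusted p = 0.00361). Timm13 had 18968, 16215, 14578 and 15845 in wild-type and 9537, 10810.3, 9177 and 12941 in mutant cultures. The gene fell by 0.63 ± 0.12 (limma adjusted p = 0.00489), and mutant culture 4 was the nearest to wild-type. Timm8b fell least of the group (-0.42).

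Among polyribosomes only Chchd4 of these 6 was called, a share near the 11.9% of all tested genes called lower. Its values were 4081, 4637, 4100.4 and 4521 in wild-type and 3266, 3381, 2720.2 and 2952 in mutant cultures, a fall of 0.50 ± 0.12 (limma adjusted p = 0.0143) with no overlap. With 1 culture left out at a time, this call was lost in 1 of 8 fits. Timm8a1, with the largest fall in total RNA, had 2056, 3008, 3183 and 3412 in wild-type and 2531, 2461, 2095 and 2587 in mutant cultures on polyribosomes; wild-type culture 1 lay below all the mutants, and the difference was within the spread (log2 change -0.25 ± 0.16, limma adjusted p = 0.285). Timm10 (-0.20) and Timm9 (-0.28) were not called. Timm13 had 7247, 13474, 12107 and 14573 in wild-type and 16475, 12307, 11187 and 12582 in mutant cultures, where wild-type culture 1 held much less than the other wild-type cultures, and the log2 change was 0.18 ± 0.20 (limma adjusted p = 0.541). Timm8b had the highest polyribosomal change of all 36 members, 0.52 ± 0.20, which was not called (limma adjusted p = 0.0762). Without wild-type culture 1, the lowest for both, the change was 0.33 for Timm8b and -0.04 for Timm13, and without wild-type culture 4 or mutant culture 2 that of Timm8b passed the test (0.67 and 0.62).

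TIM22 inserts metabolite carriers into the inner membrane. Of its 3 members here, 2 (Timm10b and Timm22) were lower in total RNA. With 1 culture left out at a time, each of these calls was lost in 5 of 8 fits. Timm10b, a small TIM that docks the chaperone rings on the translocase, had 6361, 8114, 8100.0 and 8560.1 in wild-type and 6069, 6354, 4352 and 6311 in mutant cultures. Its level fell by 0.44 ± 0.14 (limma adjusted p = 0.0302); mutant culture 3 stood far below the other mutants, and 22.1% of the exonic bases overlap other genes, among them Arfip2. Timm22, the channel, had 3964, 4409, 3935 and 4107 in wild-type and 3013, 3364, 2818 and 3928 in mutant cultures. In the test it fell by 0.33 ± 0.11 (limma adjusted p = 0.0312), with mutant culture 4 just under the lowest wild-type culture. Timm29, a subunit that holds TIM22 together and links it to TOM, did not fall with the rest of the set, at 5146, 4383, 4611 and 4575 in wild-type and 4950.1, 4938, 4818 and 5184 in mutant cultures, with overlap and no call (log2 change 0.09 ± 0.08, limma adjusted p = 0.356). On polyribosomes Timm29 had 5818, 5279, 5295 and 5256 in wild-type and 4606, 4669, 4398 and 4234 in mutant cultures, all mutant values below all wild-type values without a call (-0.27 ± 0.11, limma adjusted p = 0.0839), while the changes of Timm10b (0.33) and Timm22 (0.16) were positive and not called.

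TIM23 and its motor, which carry presequence proteins across the inner membrane, were lower in 10 of 10 members in total RNA (median log2 change -0.47). Timm23, the channel, had 20703, 23709.5, 23825 and 21418 in wild-type and 12260.1, 15548, 10029.7 and 14875 in mutant cultures. Mutant levels fell by 0.78 ± 0.13 (limma adjusted p = 0.0035), with mutant cultures 3 and 1 lowest. Pam16 and Dnajc19 are the J-type regulators of the motor. Pam16 had 2507, 2923, 2833 and 2770.1 in wild-type and 1817, 2002, 1803 and 2112 in mutant cultures. Its mRNA fell by 0.51 ± 0.09 (limma adjusted p = 0.0035), and Dnajc19 had 3580.5, 4218, 3944 and 3668 in wild-type and 2223, 2656, 1948 and 2944 in mutant cultures. The gene fell by 0.67 ± 0.13 (limma adjusted p = 0.00456). Timm50, the receptor that hands precursors to the channel, had 10245, 9945, 10526 and 8756 in wild-type and 6292, 7950.1, 5354 and 7258 in mutant cultures. Its level fell by 0.57 ± 0.12 (limma adjusted p = 0.00704). Timm17a, a channel subunit whose paralog is Timm17b, had 9241, 11516, 10083 and 10447 in wild-type and 7542, 8010.3, 5897 and 8271 in mutant cultures. In the test it fell by 0.48 ± 0.12 (limma adjusted p = 0.0107). The genotypes did not overlap for any of these 5. Hspa9, the motor's Hsp70 (log2 change -0.41), Grpel1, its nucleotide exchange factor (-0.37), Timm44, which tethers the motor (-0.35), and Timm21, which links TIM23 to TOM (-0.46), were lower too, and Timm17b fell least (-0.26, with overlap).

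On polyribosomes 3 of these 10 were lower, against 11.9% of all tested genes. Timm50 had 12291, 11376, 10963 and 10951 in wild-type and 8473, 9489, 6741 and 8488 in mutant cultures. Mutant levels fell by 0.47 ± 0.13 (limma adjusted p = 0.0215), and the call was lost in 4 of the 8 fits that left out a culture. Timm23 had 14398, 16196, 15320.0 and 17289 in wild-type and 12396, 12522, 10199 and 13489 in mutant cultures. Its mRNA fell by 0.38 ± 0.12 (limma adjusted p = 0.0399). Hspa9 had 20894, 20939, 22449 and 19937 in wild-type and 13672, 16245, 9820.2 and 19926 in mutant cultures, where mutant culture 4 almost reached the lowest wild-type culture, and fell by 0.54 ± 0.18 (limma adjusted p = 0.047); the change was 0.15 and not called with the S phase level in the fit, and the call was lost in 6 of the 8 fits that left out a culture, as was that of Timm23. Pam16 was at 1334, 1437, 1481 and 1514 in wild-type and 1828, 1342, 1331 and 1614 in mutant cultures and Dnajc19 at 962, 1385, 1509.6 and 1534 in wild-type and 1783, 1563, 1407 and 1783 in mutant cultures, both overlapping between genotypes, with log2 changes of 0.07 and 0.29 and no call. Timm17a had a log2 change of -0.21, and the remaining 4 lay between -0.31 (Timm21) and 0.07 (Timm17b), none past the threshold.

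In the matrix, Hspd1 and Hspe1 encode the barrel and the lid of the folding chaperonin, and Pmpca and Pmpcb the subunits of the peptidase that removes presequences. Hspd1 had 44320.0, 42712, 44211 and 41495 in wild-type and 22701, 34166, 18819 and 28260.1 in mutant cultures in total RNA and fell by 0.77 ± 0.16 (limma adjusted p = 0.0059). Its divergent neighbour Hspe1 had 18778, 19883, 17646 and 18842 in wild-type and 10805, 13094, 9195 and 14344 in mutant cultures. The gene fell by 0.68 ± 0.13 (limma adjusted p = 0.00461). For both the wild-type cultures were close together and mutant cultures 3 and 1 were lowest. The peptidase fell by less: Pmpca had 18248, 17892, 18377 and 17903 in wild-type and 13893, 15142, 12393 and 16680.2 in mutant cultures (a fall of 0.33 ± 0.09, limma adjusted p = 0.0218; 20.4% of its exonic bases overlap Inpp5e), and Pmpcb had 8661, 9134, 9111 and 9035 in wild-type and 7461, 7847, 6613 and 8053 in mutant cultures (a fall of 0.27 ± 0.08, limma adjusted p = 0.0254). The genotypes did not overlap for any of these 4. On polyribosomes Hspd1 had the largest fall of the whole set, at 25812, 25610.4, 23882 and 23188 in wild-type and 11214, 16109.9, 7667 and 19909 in mutant cultures, a fall of 0.93 ± 0.24 (limma adjusted p = 0.0181) with a wide spread between mutant cultures. With the S phase level in the fit this change was 0.082 and not called, and the call was lost in 3 of the 8 fits that left out a culture. Hspe1 was at 16511, 22054, 15869.5 and 18513 in wild-type and 15078, 13667, 10269 and 14887 in mutant cultures and just missed the threshold (-0.44 ± 0.15, limma adjusted p = 0.0531), while Pmpca (-0.25) and Pmpcb (-0.02) were not called.

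**Figure D3:**
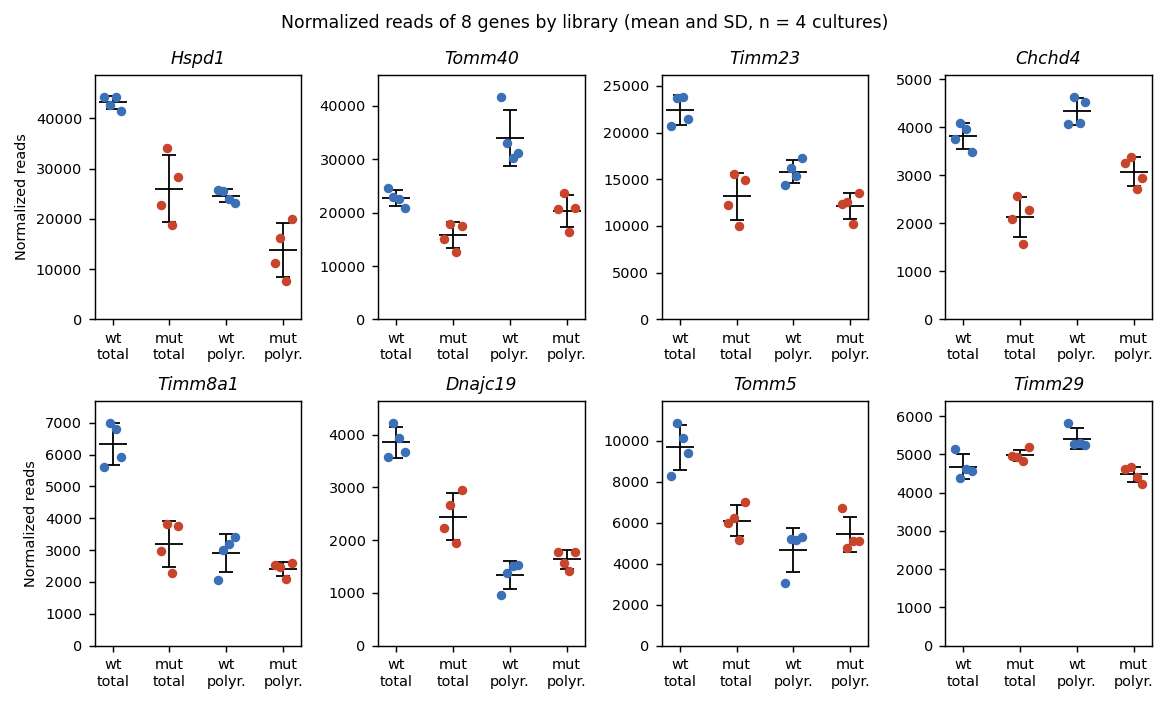
Normalized reads (vertical axes from 0) of 8 members in each library, wild-type (wt, blue) and mutant (mut, red), total and polyribosomal RNA, with the mean and SD of 4 cultures. Hspd1, Tomm40, Timm23 and Chchd4 are lower in mutant cultures in both fractions; Timm8a1, Dnajc19 and Tomm5 were called lower in total RNA and not called in polyribosomal RNA; Timm29 shows no such difference in total RNA. The tables of the 2 fractions were normalized separately.

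Over the whole set, 9 of 36 members were called lower in polyribosomal RNA and 0 higher (limma, 14412 genes; 2 were higher at an unadjusted p under 0.05), where 11.9% of tested genes were called lower and 11.7% higher. The 9 were Chchd4, Hspa9, Hspd1, Timm23, Timm50, Tomm20, Tomm34, Tomm40 and Tomm70a. For 13 members the mutant libraries lay entirely below the wild-type libraries, against 14.6% of tested genes. The median log2 change was -0.21 beside 0.01 over all tested genes. This count was less stable than that of total RNA: without wild-type culture 1, 2 or 3 it was 3, 2 or 4, without mutant culture 1 or 3 it was 4, and Tomm34 and Tomm40 kept their call each time a culture was left out. Over all genes 1713 were called lower in the main fit, and 1046, 903, 891, 1085 and 1126 in these fits in the same order. With S phase or Y-linked levels in the fit 0 members were called (2 and 8 lower at an unadjusted limma p under 0.05). Of all genes 1 and 13 were then called lower. Scaled to the column total, which moved the median of all genes from 0.01 to 0.13, 4 members were lower and 2 (Timm8b and Tomm6) were higher. Of all 14412 genes, 929 were then called lower and 2583 higher.

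The second question was whether the polyribosomal level of these mRNAs, relative to their total level, differs between genotypes. The fractions were normalized separately, so a shift common to all genes would not show. Translational efficiency was taken as the polyribosomal against the total level, and its change as the genotype difference in polyribosomal RNA minus that in total RNA within cultures. It was higher in mutant cultures for 13 of 36 members and lower for 1 (limma interaction of genotype and fraction, 14333 genes), where 5.07% of tested genes were called higher and 7.89% lower. The median log2 change was 0.30 beside 0.01 over all tested genes, and 30 of 36 estimates were positive. The median was 0.14 with the S phase level in the fit and 0.21 without mutant cultures 1 and 3. For 12 members all mutant cultures lay above all wild-type cultures, against 8.7% of tested genes. Of the 13 higher members, 12 were lower in total RNA and had no call in polyribosomal RNA (Dnajc19, Pam16, Timm10, Timm10b, Timm22, Timm8a1, Timm8b, Timm9, Tomm22, Tomm5, Tomm6 and Tomm7), and Timm23 was lower in both. By role, 4 of 6 intermembrane space, 4 of 9 TOM, 3 of 10 TIM23, 2 of 3 TIM22, 0 of 3 SAM and 0 of 4 matrix members were higher (limma; 0 of the last 7 also at an unadjusted p under 0.05). The calls depended on the model and the cultures: without the variance trend and robust moderation 0 were called (17 higher at an unadjusted p under 0.05), without culture in the fit 0 (16), without mutant cultures 1 and 3 0 (10), and with S phase or Y-linked levels in the fit 0 (1 and 16). In each of these fits 0 of all 14333 genes were called higher or lower. Leaving out wild-type culture 2 or 3 or mutant culture 3 gave 8, and leaving out mutant culture 1 gave 5. Over all genes 727 were called higher in the main fit, and 329, 326, 371 and 189 in these fits in the same order.

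Per culture, the ratio is given here as log2 of polyribosomal over total level, relative to the median gene of the same culture. Dnajc19 was at -1.67, -1.44, -1.22 and -1.06 in wild-type and -0.12, -0.58, -0.24 and -0.47 in mutant cultures, so every mutant culture was above every wild-type culture, and its efficiency change was 0.97 ± 0.15 (limma adjusted p = 0.00613). Timm8b was at -1.53, -1.07, -1.06 and -0.78 in wild-type and 0.17, -0.43, -0.03 and -0.29 in mutant cultures (change 0.94 ± 0.17, limma adjusted p = 0.00613). Tomm5 was at -1.21, -0.90, -0.81 and -0.63 in wild-type and 0.36, -0.20, 0.21 and -0.20 in mutant cultures (change 0.90 ± 0.16, limma adjusted p = 0.00613). In these 3 the ratio was below the median gene in every wild-type culture and was highest in mutant cultures 1 and 3. Timm10b was at -0.83, -0.71, -0.61 and -0.47 in wild-type and 0.40, -0.10, 0.31 and -0.05 in mutant cultures (change 0.77 ± 0.14, limma adjusted p = 0.00613). Timm8a1 was at -1.22, -1.05, -0.93 and -0.60 in wild-type and -0.03, -0.45, 0.10 and -0.29 in mutant cultures (change 0.76 ± 0.15, limma adjusted p = 0.0077). Tomm22 was at -0.77, -0.67, -0.57 and -0.39 in wild-type and 0.20, -0.22, 0.22 and -0.15 in mutant cultures (change 0.59 ± 0.14, limma adjusted p = 0.0131). In all 3, again, no mutant culture reached down to the wild-type range. Pam16 was at -0.68, -0.86, -0.77 and -0.68 in wild-type and 0.21, -0.39, -0.21 and -0.14 in mutant cultures (change 0.59 ± 0.14, limma adjusted p = 0.013). Timm10 was above the median gene in all cultures, at 0.25, 0.31, 0.28 and 0.51 in wild-type and 1.17, 0.68, 0.89 and 0.68 in mutant cultures (change 0.49 ± 0.13, limma adjusted p = 0.0238). With 1 culture left out at a time, Timm10 lost its call in 4 of 8 fits, and Pam16 and Tomm22 in 1.

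The remaining 5 higher members, Tomm7 (0.74), Tomm6 (0.77), Timm22 (0.49), Timm9 (0.48) and Timm23 (0.40), had limma adjusted p from 0.0248 to 0.0469. With 1 culture left out at a time, Timm22 and Timm9 lost their calls in 6 of 8 fits, Timm23 in 4, and Tomm6 and Tomm7 in 3. Timm13 had a larger estimate than any of these (0.82 ± 0.27) without a call (limma adjusted p = 0.0709); its ratios were -1.16, -0.11, -0.10 and 0.07 in wild-type and 0.99, 0.37, 0.51 and 0.21 in mutant cultures, and wild-type culture 1 alone was far below the rest. Without that culture its change was 0.52 and passed the test (limma adjusted p = 0.0168). Then 14 members were called higher, beside 1496 of all genes, against 727 of all genes with that culture. Timm29 was the single member with a lower efficiency, at 0.41, 0.43, 0.36 and 0.39 in wild-type and 0.09, 0.10, 0.09 and -0.04 in mutant cultures, a fall of 0.36 ± 0.11 (limma adjusted p = 0.0404), with no overlap; this call was lost when any of 7 of the 8 cultures was left out. Of the genes that fell in both fractions, Hspd1 (-0.16), Hspa9 (-0.13), Tomm40 (-0.20), Tomm34 (-0.10) and Tomm70a (-0.02) had efficiency changes below 0 and no call.

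**Figure D4:**
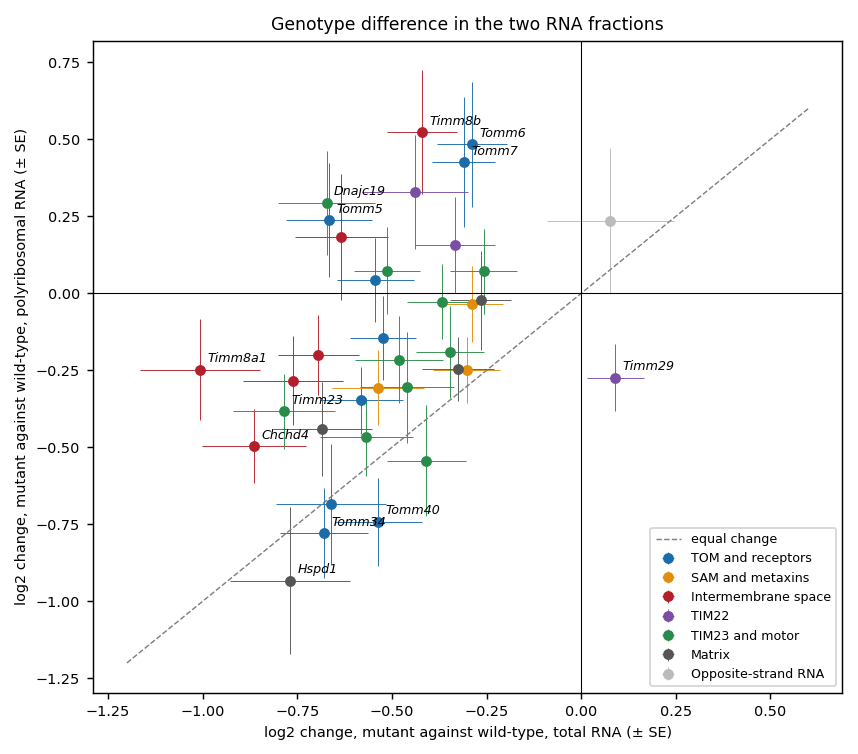
Log2 change, mutant against wild-type, in total RNA (horizontal) and polyribosomal RNA (vertical) with SE bars for the 36 members, coloured by role; the dashed line marks equal change. Most points lie left of 0 and above the line, Timm8b, Tomm6 and Tomm7 lie highest, and Hspd1, Tomm34 and Tomm40 lie below the line.

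The efficiency change of the members moved with transcript length, taken from the principal GENCODE M21 isoform. Members were short, with a median of 1617 bases against 2965 over tested genes with a length. Of 9 members under 1000 bases, 8 were higher in efficiency and 0 lower (median log2 change 0.77), and the exception was Hspe1. In the same class 35.9% of 838 tested genes were higher, with a median of 0.43. From 1000 to 2000 bases 4 of 10 members were higher (median 0.33) against 6.93% of genes (median 0.18). From 2000 to 4000 bases 1 of 12 was higher and 1 lower (median 0.19) against 2.03% and 5.20% of genes (median -0.03), and above 4000 bases 0 of 4 were called (median 0.14; limma, 0 also at an unadjusted p under 0.05) against 1.24% higher and 18.9% lower (median -0.18). Across the 35 members the Spearman correlation of log2 length with the efficiency change was -0.65, and across 13569 genes it was -0.45; genes share the same libraries, so these only describe them. For length and the total RNA change of the members it was 0.20. For genes under 1000 bases the median ratio of wild-type culture 1 was -0.22, against -0.04 for the mean of wild-type cultures 2, 3 and 4. Without wild-type culture 1 the median efficiency change of the members was 0.34, against 0.30 with it. The parts of length itself and of this culture in the efficiency changes were not tested.

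**Figure D5:**
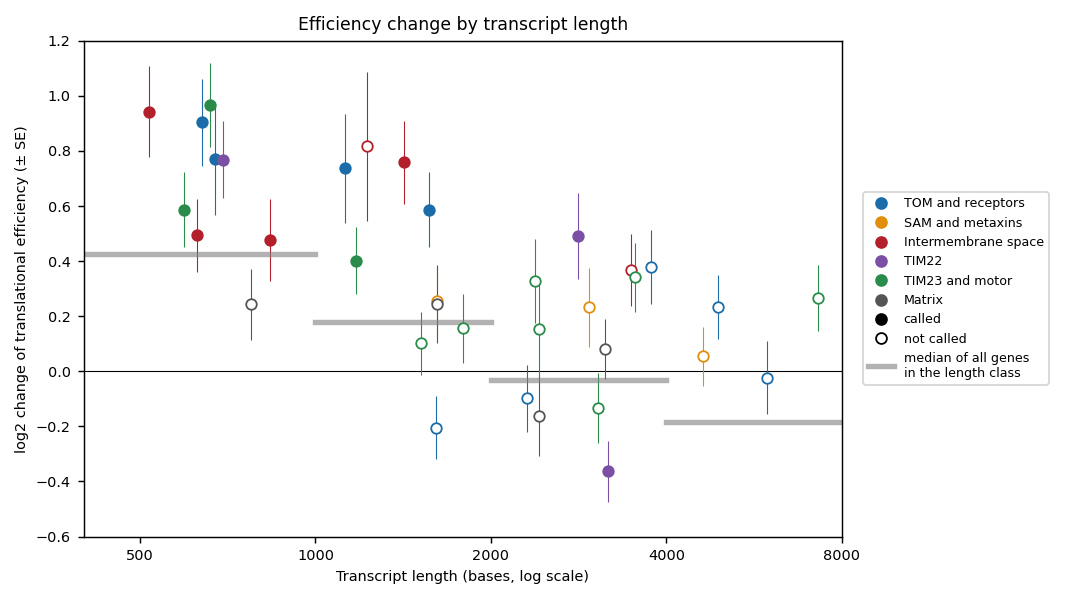
Log2 change of translational efficiency with SE bars against transcript length (log axis) for the 35 protein-coding members, coloured by role, filled where called. Grey bars give the median of all tested genes in 4 length classes; short members lie highest, and the grey bars also decline from 0.43 to -0.18.

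Levels within the set were compared per kilobase of transcript in wild-type total RNA. Hspe1 was highest (24273 normalized reads per kilobase), followed by Timm23 (19108), Hspd1 (17823), Hspa9 (15815), Tomm5 (15123), Tomm6 (14963) and Tomm40 (14109). The lowest were Timm21 (555), Chchd4 (1103), Mtx2 (1212) and Timm17a (1418). The channel Timm23 stood above its motor regulators Dnajc19 (5846) and Pam16 (4628), and Tomm40 above the receptors Tomm22 (6706), Tomm20 (6012) and Tomm70a (2316). The Spearman correlation of the log2 wild-type mean with the log2 change in total RNA was -0.02 over 35 members, which share their libraries.

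Genes near this machinery were read from lists set aside from the members. Of 15 other import and insertion genes 9 were lower in total RNA and 0 higher (limma; 1 was higher at an unadjusted p under 0.05, Mtch1, at 0.22 ± 0.09), with a median log2 change of -0.32. Timmdc1, a complex I assembly factor of the Timm17 family, fell by 0.64 ± 0.10 (limma adjusted p = 0.00278), Mipep, a matrix peptidase that trims processed precursors, by 0.61 ± 0.11 (limma adjusted p = 0.00368), Agk, a kinase that is also part of TIM22, by 0.46 ± 0.09 (limma adjusted p = 0.00487) and Dnajc15, a J protein of the import motor, by 0.69 ± 0.14 (limma adjusted p = 0.00566). In total RNA 20.7% of all tested genes were called lower, and in polyribosomal RNA 11.9% lower and 11.7% higher, beside which the counts of these and the following lists stand. In polyribosomal RNA 3 of the 15 were lower and 1 higher, a share near that of all genes. The higher one was Romo1, a small inner membrane protein, which rose by 0.81 ± 0.26 (limma adjusted p = 0.0464). In efficiency 4 of 15 were higher, against 5.07% of all genes.

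Of 12 mitochondrial proteases and quality control genes 6 were lower in total RNA (median -0.33), led by the prohibitin Phb2 (a fall of 0.59 ± 0.10, limma adjusted p = 0.00344), the chaperone Dnaja3 (0.50 ± 0.09, limma adjusted p = 0.0045), and the proteases Htra2 (0.48 ± 0.09, limma adjusted p = 0.00506) and Clpp (0.45 ± 0.09, limma adjusted p = 0.00581), and 5 were lower in polyribosomal RNA. Of 8 tested genes of MICOS, the complex that shapes cristae junctions, 4 were lower in total RNA (Dnajc11, Chchd6, Chchd3 and Minos1, with log2 changes of -0.58, -0.44, -0.45 and -0.31) and 1 in polyribosomal RNA, near the share of all genes. Of 8 cytosolic chaperones that receive precursors 5 were lower in total RNA, among them Stip1 (a fall of 0.68 ± 0.13, limma adjusted p = 0.00484), Hspa8 (0.38 ± 0.10), Hsp90aa1 (0.53 ± 0.16) and Dnaja2 (0.30 ± 0.09).

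Regulators of mitochondrial gene expression did not all move one way. Of 12 biogenesis factors 5 were lower and 1 higher in total RNA. Ppargc1a, the coactivator that drives mitochondrial biogenesis, rose by 0.77 ± 0.14 (limma adjusted p = 0.00392) from a mean of 2211 to 3747 normalized reads, and in polyribosomal RNA it rose by 0.92 ± 0.12 (limma adjusted p = 0.00168). Its relative Ppargc1b fell by 0.85 ± 0.16 (limma adjusted p = 0.00466), and the mitochondrial transcription factors Tfam and Tfb1m fell by 0.55 ± 0.10 (limma adjusted p = 0.00455) and 0.50 ± 0.10 (limma adjusted p = 0.00581). Of 5 stress factors, Atf3 rose by 1.42 ± 0.31 (limma adjusted p = 0.00748) and Ddit3 by 0.70 ± 0.22 (limma adjusted p = 0.0288), whereas Hsf1, the heat shock transcription factor, fell by 0.43 ± 0.10 (limma adjusted p = 0.011); Atf4 had a log2 change of -0.15 ± 0.08 and no call (limma adjusted p = 0.149). In polyribosomal RNA Hsf1 fell by 0.48 ± 0.13 (limma adjusted p = 0.0251), and Atf3 and Ddit3 were again higher. In efficiency Atf4 rose by 0.55 ± 0.15 (limma adjusted p = 0.0251) and Ddit3 by 0.63 ± 0.19 (limma adjusted p = 0.0399).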

How the data were processed

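Total and polyribosomal RNA were sequenced from 4 wild-type and 4 mutant NSC cultures. According to the methods and the labels, the authors sequenced poly(A)-selected libraries as paired ends, trimmed adapters, aligned to mm10 with STAR and normalized with a DESeq2 application on BaseSpace. For the counting of reads, tool and gene models are not stated in the sources used here. The deposited values are a signal (reads of a gene after scaling by size factors), with the 8 libraries of each fraction in a table normalized apart from the other. Within 0.1 of whole multiples of the value of 1 read lay 89.6% to 92.9% of low values in total RNA and 71.3% to 93.8% in polyribosomal RNA, so whole reads were not recovered and no count model was used. Depth was estimated as column total over that step. Each table had 24972 rows, of which 26 with names turned into dates were left out.

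Genes with a mean of at least 10 entered linear models of log2(value + 1) in limma 3.58.1 (R 4.3.3). Moderation was robust and followed a variance trend, p-values were adjusted over all genes by Benjamini-Hochberg with a threshold of 0.05, and ± is the standard error. Such changes understate those of low genes. Efficiency was tested as the interaction of genotype and fraction in 16 libraries with culture as a fixed block: both libraries of a culture carry its number, and their deviations from group means correlated at 0.23 to 0.73 over genes. The kit did not mark strand. Gene overlaps and lengths are from GENCODE M21 (GRCm38). The fits were also run on simulated data whose libraries were drawn independently of each other. The simulation held no culture, cycling or sex effect and cannot speak to these.

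Members, roles and lists were chosen with earlier results of these data known. Library values are given for up to 5 members of a role by smallest p in total RNA and up to 8 members called in efficiency, and other lists name up to 4 genes by that p; Romo1, Mtch1 and the polyribosomal library values of Tomm40 and Hspa9 were chosen after their values were seen. Alternatives varied moderation, pseudocount, filter, scaling, covariates, blocks and cultures left out.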

Additional observations from a re-analysis of the deposited data

Results flagged for a closer look

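A library stood apart from the other 3 of its group, by a gap to its nearest neighbour that passed Dixon's 95% critical value, in 9 of the 144 groups of 4 examined (36 members in 4 groups). Chance flags about 1 in 20 groups. Of these, 8 were polyribosomal. In wild-type culture 1 Tomm5 was low (3049.9 normalized reads, nearest 5131) and Timm29 high (5818, nearest 5295). In mutant culture 1 Tomm6 (11670.2, nearest 8587), Tomm22 (7146, nearest 6089) and Timm17b (4653, nearest 3789.7) were high. In mutant culture 4 Mtx2 (5437, nearest 4512) and Pmpcb (5310.4, nearest 3592) were high, and in mutant culture 3 Samm50 was low (24128, nearest 27062). The flag in total RNA was Timm10b in mutant culture 3 (4352, nearest 6069).

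The genotype difference was not the same in polyribosomal as in total RNA for 14 members, by the limma interaction test (adjusted p from 0.00613 to 0.0469). The difference of log2 changes was 0.97 for Dnajc19, 0.94 for Timm8b, 0.90 for Tomm5, 0.77 for Tomm6, 0.77 for Timm10b, 0.76 for Timm8a1, 0.74 for Tomm7, 0.59 for Tomm22, 0.59 for Pam16, 0.49 for Timm10, 0.49 for Timm22, 0.48 for Timm9, 0.40 for Timm23 and -0.36 for Timm29. Each of these calls was lost under some of the alternatives given with them above, and their cause was not tested.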

How the results depend on the processing

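In total RNA 27 to 34 of 36 members were lower under other pseudocounts, filters, scalings and moderation, against 34 as reported, and 25 to 34 with a culture left out. The count was 11 with the Y-linked level and 0 with the S phase level (33 and 13 at an unadjusted limma p under 0.05). It was 18 without mutant cultures 1 and 3 (31 at that unadjusted threshold). Over all 14967 genes, 3091 were called lower in the main fit and 535, 2 and 1151 in these fits. With a culture left out, 2114 to 3416 of all genes were called lower. In polyribosomal RNA, against 9 lower and 0 higher, 5 were lower without trend and robust moderation, 4 lower and 2 higher as shares of the column total, 3 lower after quantile normalization, 0 with either covariate, 2 without mutant cultures 1 and 3, and 15 without mutant cultures 2 and 4. Over all 14412 genes, 1713 were called lower in the main fit. In these fits the count was 1328, 929 (and 2583 higher), 1447, 13 (Y-linked), 1 (S phase), 633 and 2815, in order. With a culture left out, 2 to 13 members were lower and 0 to 1 higher, beside 891 to 2106 of all genes lower. Under the S phase covariate Hspa9 (0.15), Hspd1 (0.082) and Tomm70a (0.24) changed sign in polyribosomal RNA, without a call. In efficiency, against 13 higher and 1 lower, 0 and 0 were called without trend and robust moderation, with either covariate, without mutant cultures 1 and 3, or with no replicate block for culture, and 0 were lower with no filter on low values or without mutant cultures 2 and 4. Where 0 and 0 members were called, 0 of all 14333 genes were called in either direction. With a culture left out, 5 to 14 were higher and 0 to 1 lower, beside 189 to 1496 of all genes higher, against 727 in the main fit. The cause of these shifts was not tested.

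Wild-type and mutant cultures of the same number shared no more than the number (correlations of deviations -0.13 to 0.13). With that number as a replicate block, 31 members were lower in total RNA, 6 lower in polyribosomal RNA, and 9 higher and 0 lower in efficiency. Of all genes, 2339 were then called lower in total RNA and 1185 in polyribosomal RNA, against 3091 and 1713 in the main fits. In efficiency 489 of all genes were higher and 885 lower, against 727 and 1131. Apart from Tomm6os, the lowest mean in total RNA was that of Timm21, at 1155 normalized reads.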
